A study of Homo sapiens with 14 samples.

Results

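The peaks described here lie around the centromere of human chromosome 9. They are all peaks that start between 38000000 and 71000000 on chromosome 9 (hg19) in the 12 deposited peak lists of a chromatin immunoprecipitation and sequencing study, 842 of 117699 peaks in all. The rule uses position and no measured value, although members and lists were chosen with earlier results of these data known. The remaining 3661 peaks of chromosome 9 served as the comparison.

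The cells were K562, an established human erythroleukemia line, either freely cycling or arrested in mitosis. Each cell state was sampled without treatment or after 30 min at 42 °C, with antibodies against the heat shock factors HSF1 and HSF2 and with IgG, the negative antibody control. That gives 12 antibody libraries, 1 per group, each made from 10 pooled immunoprecipitations, plus 1 input library per cell state, labelled as heat-treated, that entered only as the control in peak calling. No transgene or mutation is named in the labels, and all groups share the same line, so differences between groups have no replicate check and no test of a condition was possible.

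HSF1 and HSF2 are transcription factors that bind heat shock elements, and HSF1 is the main activator of chaperone genes upon heat. In heat-stressed human cells HSF1 also gathers in nuclear stress bodies, which form on satellite III repeats in the heterochromatin next to the chromosome 9 centromere and give rise to satellite III transcripts. Satellite arrays and the large segmental duplications beside them are hard to map with short reads, and much of this heterochromatin is a gap in the hg19 assembly.

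Library depth ranged from 2066373 kept tags (non-treated mitotic IgG) to 28676943 kept tags (non-treated cycling HSF2), and list size from 875 peaks to 41184 peaks. Per the file headers, the alignments of 5 cycling lists carry bwa in their names (non-treated and heat-treated HSF1 and HSF2, and heat-treated IgG), and the other 7 lists, the non-treated cycling IgG list and all mitotic lists, carry another naming. The input kept 36542527 tags in the non-treated cycling IgG list and 34815679 in the other cycling lists. The redundant rate of the headers, the share of tags removed by a limit on tags at the same position, went with naming. It was 0 in the lists named bwa and 0.1 to 0.41 in the others. The limit was 1 tag in non-treated mitotic HSF1 and IgG and heat-treated mitotic HSF1, and 2 tags in the other lists. All intervals are 95% intervals for counting error only. Tags are given as CPM, counts per 1000000 kept tags of their own library, and PCR reads are not independent molecules.

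The window contains one long stretch without a peak in any list, from 47268541 to 65707537 (18.4 Mb), with peaks on both sides of it. Leaving out this and the other stretches of at least 1 Mb with no peak in any list, 13.02 Mb of the window and 85.1 Mb of the rest of chromosome 9 remained. These lengths stand in for the assembled length, since no hg19 sequence was used. They depend on the peaks of these lists, and a stretch left out need not be a gap in the assembly. Outside the window the rule kept 18.5 of 38.0 Mb of the short arm and 66.6 of 70.1 Mb of the long arm. No peak of any HSF list fell inside the long stretch, by its construction, so the lists hold no value for DNA that maps there.

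With the lengths so defined, peaks were denser around the centromere than on the rest of chromosome 9 in most lists. This held for IgG as well as for the heat shock factors. In non-treated cycling cells, HSF1 had 59 peaks in the window (4.53 per Mb) against 102 on the rest of the chromosome (1.20 per Mb), a density ratio of 3.78 (interval 2.70 to 5.26). HSF2 had 8 peaks (0.614 per Mb) against 25 (0.294 per Mb), a ratio of 2.09 (0.816 to 4.78). IgG had 80 peaks (6.14 per Mb) against 324 (3.81 per Mb), a ratio of 1.61 (1.25 to 2.07). The HSF2 list is the smallest of the 12, and its interval includes 1. Its window peaks had an FDR, as given by the peak caller, of 16.7% to 25.7% (median 22.8%). Those on the rest had 16.82% to 27.95%.

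After heat in cycling cells, HSF1 had 51 window peaks (3.92 per Mb) and 182 on the rest (2.14 per Mb), a ratio of 1.83 (1.32 to 2.51). HSF2 had 39 window peaks (2.99 per Mb) and 122 on the rest (1.43 per Mb), a ratio of 2.09 (1.42 to 3.02). IgG had 65 window peaks (4.99 per Mb) and 92 on the rest (1.08 per Mb), a ratio of 4.62 (3.31 to 6.42). The IgG ratio was the highest of the 12 lists, and its interval did not overlap those of HSF1 and HSF2 from the same cells.

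In non-treated mitotic cells, HSF1 had 62 window peaks (4.76 per Mb) and 173 on the rest (2.03 per Mb), a ratio of 2.34 (1.72 to 3.15). HSF2 had 98 window peaks (7.53 per Mb) and 596 on the rest (7.0 per Mb), a ratio of 1.08 (0.859 to 1.33). IgG had 77 window peaks (5.91 per Mb) and 165 on the rest (1.94 per Mb), a ratio of 3.05 (2.30 to 4.02). The HSF2 density was thus not distinguishable from that of the rest of the chromosome at this count.

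In heat-treated mitotic cells, HSF1 had 67 window peaks (5.14 per Mb) and 180 on the rest (2.11 per Mb), a ratio of 2.43 (1.81 to 3.24). HSF2 had 56 window peaks (4.30 per Mb) and 277 on the rest (3.25 per Mb), a ratio of 1.32 (0.973 to 1.77). IgG had 180 window peaks (13.8 per Mb) and 1423 on the rest (16.7 per Mb), a ratio of 0.827 (0.704 to 0.966). This IgG list is the largest of the series with 41184 peaks, and it was the only list of the 12 whose ratio lay below 1 with its whole interval. Over all lists the median ratio was 2.09, and the lower bound was above 1 in 8 of 12.

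**Figure D1:**
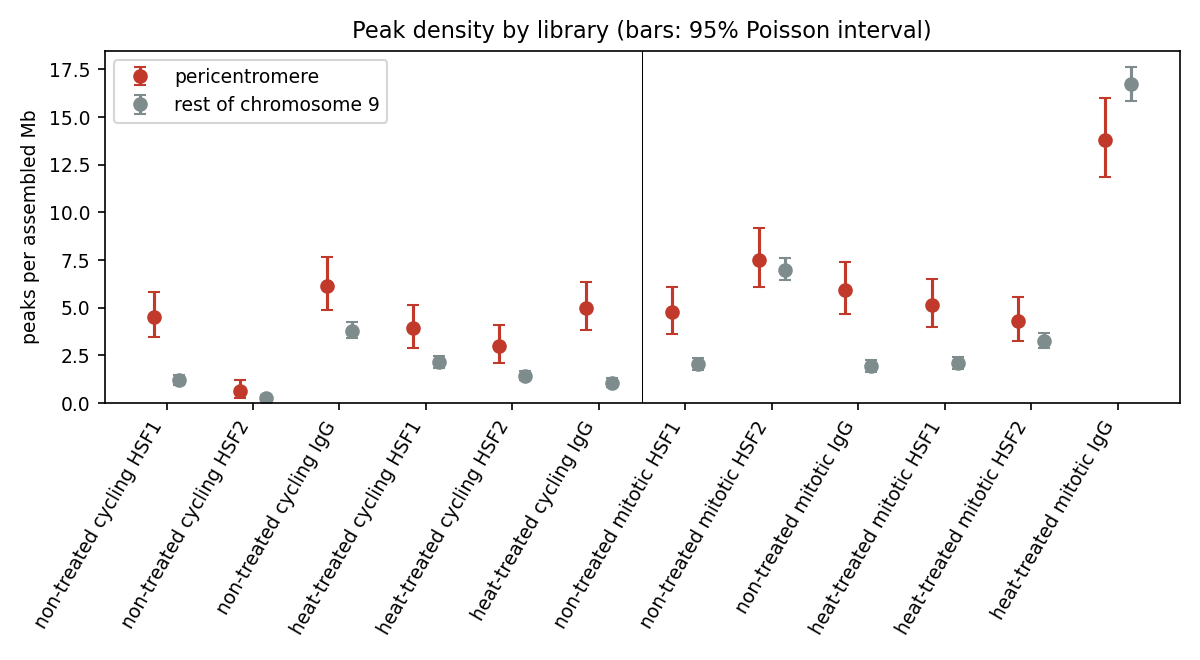
Peaks per Mb in each of the 12 lists, for the chromosome 9 pericentromere (red circles) and the rest of chromosome 9 (grey circles), with 95% Poisson intervals for counting error as bars. The vertical axis is labelled assembled Mb, for which the length without peak-free stretches of at least 1 Mb stands in. The red point is above the grey one in every list except heat-treated mitotic IgG, where the values are 13.8 and 16.7 per Mb.

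With heat, the HSF1 density ratio went from 3.78 to 1.83 in cycling cells and from 2.34 to 2.43 in mitotic cells. The HSF2 ratio stood at 2.09 in both cycling lists, and went from 1.08 to 1.32 in mitotic cells. The IgG ratio moved more than that of either factor, from 1.61 to 4.62 in cycling cells and from 3.05 to 0.827 in mitotic cells. None of the 4 HSF pairs therefore moved with heat by as much as the IgG control of the same cell state. The cycling IgG pair also differs in alignment naming and in redundant rate, 0.31 without treatment and 0 after heat. The part of these in the difference was not tested.

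In 3 lists the comparison rests on a 1-Mb segment of the long arm, with peaks from 133501616 to 134490109, that holds many of the peaks outside the window. This segment held 92 of 173 peaks in non-treated mitotic HSF1, 144 of 165 in non-treated mitotic IgG and 75 of 180 in heat-treated mitotic HSF1. Without it, an alternative chosen after the values were seen, the density ratios of these lists were 4.95, 23.7 and 4.12. The ratios also depend on whether the long peak-free stretch is counted as window length. Over the whole span, which counts it, 7 of 12 ratios and 3 of 12 lower bounds were above 1. The non-treated cycling IgG and heat-treated cycling HSF1 ratios fell to 0.809 and 0.918, with intervals that included 1. The non-treated and heat-treated mitotic HSF2 ratios fell to 0.539 (0.431 to 0.668) and 0.662 (0.488 to 0.886). The heat-treated mitotic IgG ratio fell to 0.415. With stretches of at least 0.25 Mb left out, the ratios ran from 0.900 to 5.02, with 9 of 12 lower bounds above 1. With only the longest stretch left out, a choice made after seeing the data, they ran from 0.939 to 5.25, also with 9 of 12.

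Within the window, peaks were not evenly spread. Density was higher on the long-arm side of the long stretch than on the short-arm side in 11 of 12 lists, for example 6.42 against 3.23 per Mb in non-treated cycling HSF1 and 12.8 against 1.16 per Mb in non-treated mitotic IgG. Heat-treated mitotic HSF2 was the exception, with 3.59 per Mb on the long-arm side and 4.79 per Mb on the short-arm side. The bin from 4 to 5 Mb into the long arm held 138 peaks over the 12 lists, and the bin from 1 to 2 Mb on the short-arm side held 109. Between 6 and 8 Mb on the short-arm side only 3 peaks were found in all lists together, a range that includes part of the peak-free stretch from 40404051 to 41942641.

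**Figure D2:**
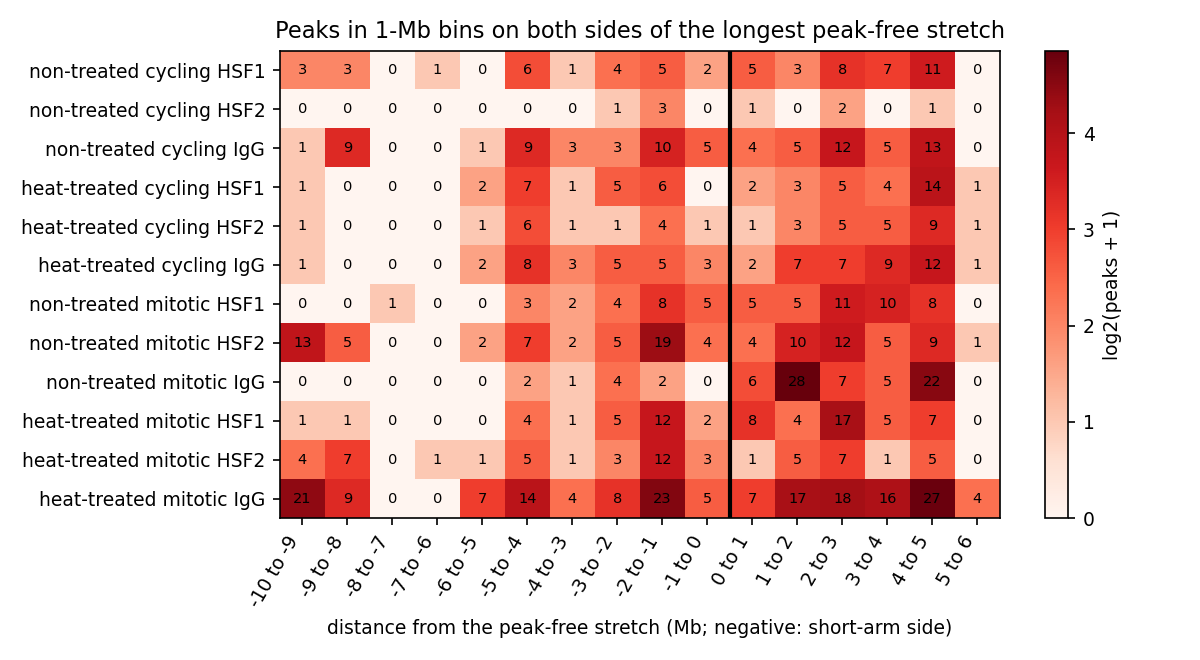
Number of peaks in 1-Mb bins (horizontal axis, distance in Mb from the longest peak-free stretch, negative on the short-arm side) for each of the 12 lists (rows). Colour gives log2(peaks + 1) and the number in each cell is the count. Most lists share the filled bins at 4 to 5 Mb on both sides and at 1 to 2 Mb on the short-arm side, and the non-treated mitotic IgG list holds 28 peaks at 1 to 2 Mb on the long-arm side.

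By tags in peaks the window stood further above the rest of the chromosome than by peak counts in 10 of 12 lists. Window peaks held 289 CPM in non-treated cycling HSF1, 32.8 in HSF2 and 183 in IgG, and after heat 151, 140 and 347. In mitotic cells they held 328, 342 and 1216 CPM without treatment and 340, 115 and 528 after heat, in the same order of antibodies. IgG was the highest of the antibodies in 3 of the 4 conditions, and HSF1 was the highest in non-treated cycling cells.

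Per Mb, the window-to-rest ratio of tags in peaks was above 1 in all 12 lists, with a median of 2.74. It was 6.22 for HSF1, 3.12 for HSF2 and 2.29 for IgG in non-treated cycling cells, and 2.90, 4.73 and 11.6 after heat. In mitotic cells it was 1.88, 2.57 and 10.6 without treatment and 1.83, 2.37 and 2.08 after heat. The 1-Mb long-arm segment held 85.3%, 82.1% and 82.6% of the tags on the rest in non-treated mitotic HSF1, non-treated mitotic IgG and heat-treated mitotic HSF1, and without it these ratios were 12.6, 58.4 and 10.4. In non-treated cycling cells they were then 14.6, 4.85 and 3.47, and for heat-treated cycling IgG 19.5. Over the whole span, the ratios of non-treated and heat-treated mitotic HSF1 were 0.943 and 0.918. With a fold of at least 5, those of heat-treated cycling HSF1 and HSF2 were 0.104 and 0.300. Such sums grow with the length called. Peaks covered from 13.6 kb (non-treated cycling HSF2) to 185 kb (heat-treated mitotic IgG) of the window, and the mean signal inside them was 1.95 to 15.2 CPM per kb. On the rest of chromosome 9 it was 1.28 to 6.52 CPM per kb, and within each list the window mean was the higher of the pair.

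The HSF to IgG ratio, CPM in HSF peaks over CPM in IgG peaks of the same cells, was lower in the window than on the rest of chromosome 9 in 5 of 8 HSF lists, and in 4 of 8 without the 1-Mb long-arm segment. Per kb covered it was lower in 7 of 8, and in 5 of 8 without the segment. It was lower by each of these measures in heat-treated cycling HSF1 and HSF2 and higher by each in non-treated cycling HSF1, and the other 5 lists changed order with the measure. In heat-treated cycling cells it was 0.435 in the window and 1.73 on the rest for HSF1, and 0.405 and 0.991 for HSF2. These values come from 3 libraries with the same alignment naming, and the covered lengths in the window were 52.8 kb (HSF1), 56.6 kb (HSF2) and 91.5 kb (IgG). Per kb covered, the window ratios were 0.755 for HSF1 and 0.655 for HSF2, against 0.944 and 0.872 on the rest. Without the segment, the ratios on the rest were 2.34 and 1.49, and per kb 1.03 and 0.952. In the window the antibody control thus collected more tags in peaks than either factor after heat.

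In non-treated mitotic cells the ratio was 0.270 in the window and 1.52 on the rest for HSF1, and 0.281 and 1.15 for HSF2. Covered lengths there were 56.2 kb, 94.7 kb and 79.9 kb for HSF1, HSF2 and IgG, and the ratios per kb were 0.384 and 0.237, against 0.571 and 0.297 on the rest. Without the segment, the ratios on the rest were 1.25 for HSF1 and 4.74 for HSF2, and per kb 0.317 and 0.159, below those of the window. In heat-treated mitotic cells it was 0.644 and 0.729 for HSF1, and 0.217 and 0.190 for HSF2, with 73.2 kb, 59.0 kb and 185 kb covered in the window and ratios per kb of 1.62 and 0.681, against 2.33 and 0.807 on the rest. The HSF1 order turned without the segment, where the ratio on the rest was 0.148. The HSF2 order turned when the peak with the most tags was left out in each library, which gave a window-over-rest value of 0.976 in place of 1.14. The mitotic IgG libraries differ widely in depth, and the shallowest library of the series is the non-treated one.

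In non-treated cycling cells both ratios were higher in the window. HSF1 had a ratio of 1.58 in the window and 0.584 on the rest, and HSF2 had 0.180 and 0.132. Covered lengths were 74.6 kb (HSF1), 13.6 kb (HSF2) and 66.1 kb (IgG), with per-kb ratios of 1.402 and 0.876 against 1.22 and 0.944 on the rest, so that per kb the HSF2 order turned. Without the segment, the HSF1 ratio on the rest was 0.375, and without the peak of most tags in each library the HSF2 window-over-rest value was 0.928 in place of 1.36. This is the one condition in which HSF and IgG alignments carry different names. The part of naming, or of the redundant rate that goes with it, in the ratio was not tested. A single region supplied 21.6% of the HSF1 tags in the window, at 66832564 to 66836501, which was chosen after its values were seen. It held 902 tags in non-treated cycling HSF1 (62.4 CPM), 936 tags in heat-treated cycling IgG (64.3 CPM) and 272 tags in non-treated mitotic IgG (132 CPM), and had no peak in the other 9 lists.

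**Figure D3:**
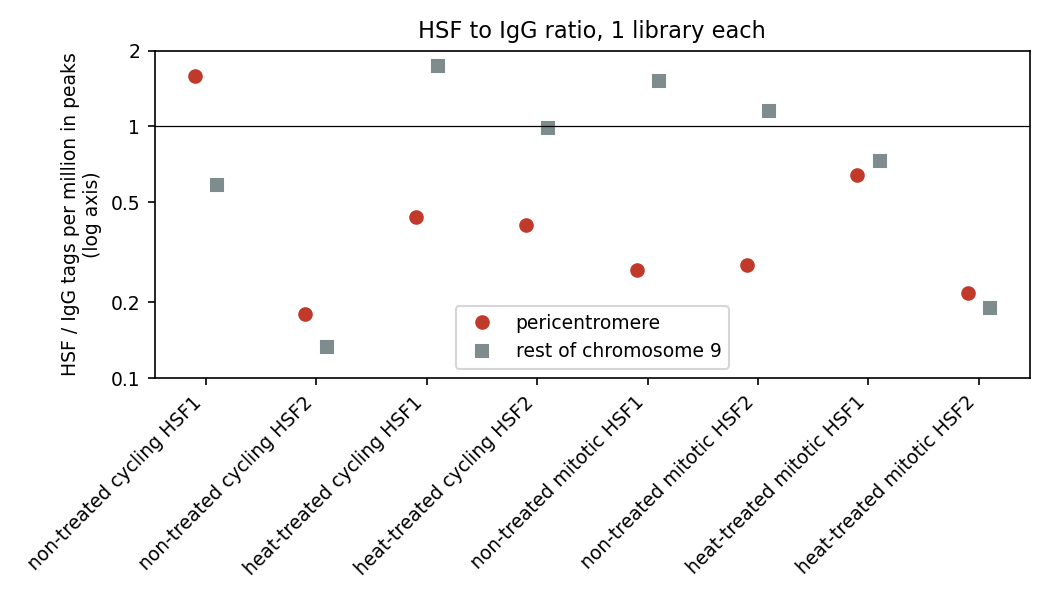
Ratio of CPM in HSF peaks to CPM in IgG peaks of the same cells (vertical log axis), for the 8 HSF lists, in the chromosome 9 pericentromere (red circles) and on the rest of chromosome 9 (grey squares). Each point is 1 library over 1 library, with no error bar; the red point is lower in both heat-treated cycling lists, both non-treated mitotic lists and heat-treated mitotic HSF1, where the order turns without the 1-Mb long-arm segment (0.644 in the pericentromere and 0.148 on the rest).

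Where an HSF peak and an IgG peak of the same cells fell on the same region of the window, the median ratio of their CPM was between 0.648 and 1.05, and single regions ranged from 0.204 to 2.54. The median HSF to IgG ratio over such regions was 0.960 (n = 14 regions) for HSF1 and 1.05 (n = 4) for HSF2 in non-treated cycling cells. After heat it was 0.964 (n = 15) and 0.925 (n = 15). In mitotic cells it was 0.823 (n = 17) and 0.899 (n = 14) without treatment, and 0.690 (n = 40) and 0.648 (n = 35) with heat. Of 154 such comparisons, 3 had a ratio of at least 2, each in non-treated mitotic cells, and 15 had a ratio of at most 0.5. Such ratios also occurred on the rest. In heat-treated mitotic cells, 6 of 40 HSF1 and 7 of 35 HSF2 window ratios were at most 0.5, against 15 of 54 and 17 of 79. In heat-treated cycling HSF1 it was 1 of 15 against 0 of 12. In non-treated mitotic cells, 1 of 17 HSF1 and 2 of 14 HSF2 window ratios were at least 2, against 16 of 62 and 4 of 12. On the rest of chromosome 9 the medians ran from 0.711 to 1.68.

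Sharing with IgG was frequent among the window peaks. In heat-treated cycling cells, 15 of 51 HSF1 window peaks (29.4%, Wilson interval 18.7 to 43.0) overlapped an IgG peak by at least 1 bp, against 11.7% of all peaks of that list and 6.59% on the rest of chromosome 9. For HSF2 it was 15 of 39 (38.5%, 24.9 to 54.1), against 12.1% of all peaks and 4.10% on the rest. In both lists the lower bound in the window lies above the share over all peaks.

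In heat-treated mitotic cells, 45 of 67 HSF1 window peaks (67.2%, 55.3 to 77.2) overlapped an IgG peak, against 49.7% of all peaks, and 36 of 56 HSF2 window peaks (64.3%, 51.2 to 75.5), against 36.3%. In non-treated mitotic cells it was 17 of 62 for HSF1 (27.4%, 17.9 to 39.6), against 17.3% of all peaks but 40.5% on the rest of the chromosome, and 14 of 98 for HSF2 (14.3%, 8.70 to 22.6), against 2.61%. In non-treated cycling cells it was 16 of 59 for HSF1 (27.1%, 17.4 to 39.6), against 20.4%, and 4 of 8 for HSF2 (50%, 21.5 to 78.5), against 39.1%. In non-treated cycling cells both intervals included the background.

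Peaks shared between conditions were read in the same way. Of heat-treated cycling window peaks, 14 of 51 for HSF1 (27.5%) overlapped a non-treated HSF1 peak, against 11.7% of all peaks of that list, and 4 of 39 for HSF2 (10.3%, 4.06 to 23.6) overlapped a non-treated HSF2 peak, against 6.47%. In mitotic cells, 29 of 67 heat-treated HSF1 window peaks (43.3%) overlapped a non-treated one, against 32.1%, and 24 of 56 for HSF2 (42.9%), against 21.9%. The interval of the HSF1 share in cycling cells (17.1 to 40.9) and of the HSF2 share in mitotic cells (30.8 to 55.9) lay above the background. The HSF2 share in cycling cells and the HSF1 share in mitotic cells (32.1 to 55.2) had intervals that reached it.

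Sharing between the factors after heat showed no such excess in cycling cells. There 17 of 51 HSF1 window peaks (33.3%) overlapped an HSF2 peak, against 32.6% of all HSF1 peaks, and 17 of 39 HSF2 window peaks (43.6%) overlapped an HSF1 peak, against 48.4%. In heat-treated mitotic cells, 18 of 67 HSF1 window peaks (26.9%) overlapped an HSF2 peak, against 29%, and 16 of 56 HSF2 window peaks (28.6%, 18.4 to 41.5) overlapped an HSF1 peak, against 11.9%.

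No window peak reached a deposited fold of 10. This fold, the authors' own enrichment of a peak over input, had its highest window values at 5.43 for HSF1 and 8.14 for HSF2 in heat-treated cycling cells. On the rest of chromosome 9, 10 HSF1 peaks and 5 HSF2 peaks of heat-treated cycling cells reached it. Over all peaks the share with a fold of at least 10 was 4.42% for HSF1 and 3.62% for HSF2 in heat-treated cycling cells, and 0.0212% and 0.571% in non-treated cycling cells. In mitotic cells it was 0% for HSF1 and 0.0201% for HSF2 without treatment, and 0.12% and 0.121% after heat. With 51 and 39 window peaks in the heat-treated cycling lists, a count of 0 allows shares of up to 5.88% and 7.69%, which include the shares over all peaks, so a lack of such peaks was not detectable at these counts.

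A lower threshold gave more members to compare. In heat-treated cycling cells, 1 of 51 HSF1 window peaks had a fold of at least 5, against 41 of 182 on the rest of the chromosome, and 2 of 39 HSF2 window peaks, against 37 of 122. The median fold was 2.59 in the window and 3.51 on the rest for HSF1, and 2.81 and 3.85 for HSF2. Restricted to a fold of at least 5, the density ratio was 0.159 (0.00394 to 0.940) for HSF1 and 0.353 (0.0413 to 1.37) for HSF2. In these heat-treated cycling lists the excess of peaks around the centromere thus consisted of peaks with a fold below 5.

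Fold was not compared between lists. In non-treated mitotic HSF1 it was below 1 in 67.7% of window peaks, in non-treated mitotic IgG in 98.7%, and in heat-treated mitotic HSF1 in 44.8%. These 3 libraries have 6164898, 2066373 and 7385467 kept tags against 38337720 in their input, and how the fold was scaled for depth is not given in the sources used here. Multiplied by the ratio of kept input to kept antibody tags, the highest window folds were 11.3 for HSF1 and 14.6 for HSF2 in heat-treated cycling cells and 20.6 for non-treated mitotic IgG, so the threshold of 10 holds for the deposited fold only. This scaling is 1 factor per list and leaves the order within a list as it is. The heat-treated cycling maxima on the rest were 33.0 and 26.3 on the same scale. Within mitotic lists the window and the rest had similar medians, 0.815 and 0.870 for HSF1 and 2.46 and 2.82 for HSF2 without treatment, and 1.04 and 1.11 for HSF1 and 3.87 and 3.87 for HSF2 after heat.

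**Figure D4:**
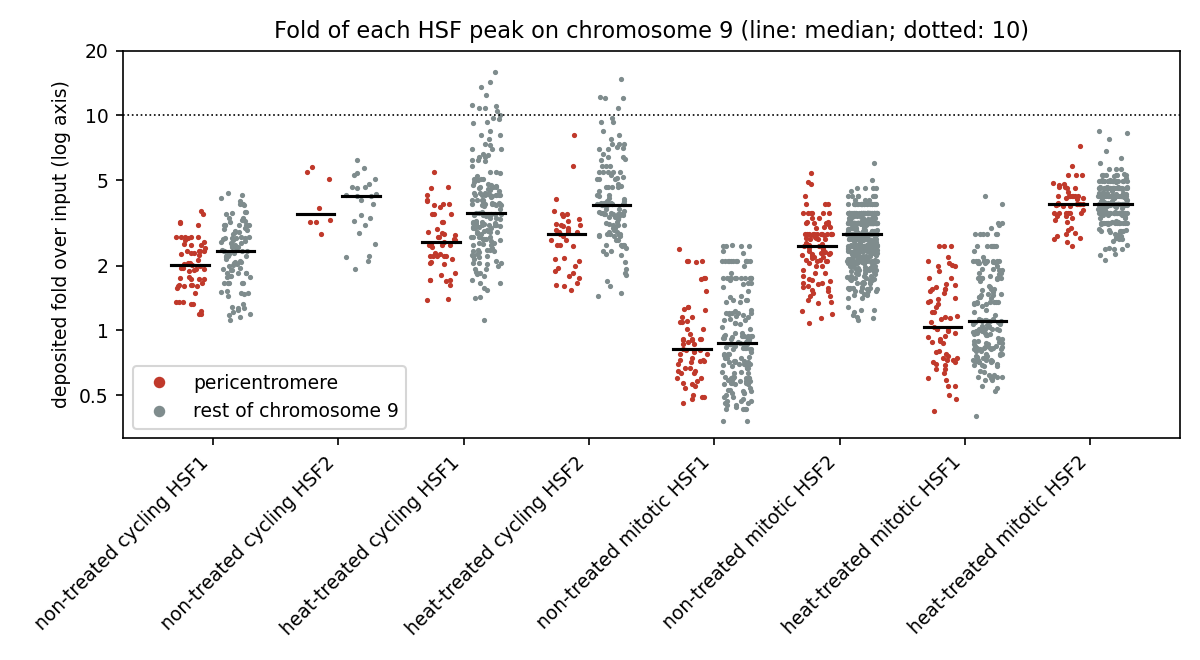
Deposited fold over input (vertical log axis) of every HSF peak on chromosome 9 by list, in the pericentromere (red) and on the rest of the chromosome (grey), with the median as a line and a fold of 10 dotted. Points above 10 are seen only on the rest of the chromosome in the heat-treated cycling lists, where the medians are 3.51 and 3.85 against 2.59 and 2.81 in the pericentromere.

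Merging peaks that overlap by at least 1 bp gave 441 regions in the window. Of these, 299 had a peak in 1 list, 80 in 3 or more lists and 19 in 6 or more. All 19 of the latter included an IgG list, and 13 of them lay on the short-arm side. HSF and IgG peaks met in 114 regions, 193 regions had IgG peaks only, and 134 had HSF peaks only (30.4%, against 33.6% on the rest of chromosome 9 and 33.7% over all chromosomes). Of the 134, 117 had a peak in 1 list and 17 in 2 lists, and none in 3 or more. The counts by number of lists have no counterpart here for the rest of chromosome 9 or other chromosomes. They are therefore not read as particular to the window.

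One region had a peak in all 12 lists. It lies at 44877230 to 44880852, 2388 kb from the long peak-free stretch on the short-arm side. In cycling cells it held 19.7 CPM for HSF1, 15.6 for HSF2 and 21.1 for IgG without treatment, and 19.1, 17.9 and 20.0 after heat. In mitotic cells it held 30.8 for HSF1, 32.9 for HSF2 and 37.7 for IgG without treatment, and 31.5, 28.9 and 42.0 after heat. The 6 mitotic libraries were all above the 6 cycling ones, and within each condition IgG was the highest of the antibodies. Only in heat-treated mitotic cells did the counting interval of IgG (39.1 to 45.2) lie above those of both factors.

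The region at 66454491 to 66462623, 747 kb into the long-arm side, had peaks in 11 lists. It held between 6.78 CPM (IgG of non-treated mitotic cells) and 19.5 CPM (heat-treated cycling HSF2, whose peak of 8053 bp was the widest there). The region at 45728479 to 45729885 also had peaks in 11 lists, with 2.90 CPM (6 tags) as the lowest value, for non-treated mitotic IgG, and 7.06 CPM as the highest, for heat-treated mitotic IgG. Here IgG gave both ends of the range, and the HSF lists lay between them.

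A neighbour of the region found in all lists, at 44874460 to 44876896, had peaks in 10 lists. It held 7.21 to 7.79 CPM in 4 cycling lists and 10.3 to 15.002 in 6 mitotic lists, with no overlap between the cell states. The regions at 44070219 to 44071341 and 70326901 to 70328084 were also found in 10 lists, and lie on opposite sides of the long stretch. In the former, the lists named bwa held 5.80 to 6.66 CPM and the others 9.21 to 19.4. In the latter, they held 6.32 to 7.69 and 7.99 to 16.0.

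In both of these regions the non-treated cycling IgG list, the one cycling list with the other naming, fell within the range of the mitotic lists, at 10.6 and 10.8 CPM. Of 14 regions with peaks in 8 or more lists, levels did not overlap between namings in 7 and between cell states in 5. Cell state and naming cannot be told apart by the other lists. The part of naming, or of the redundant rate that goes with it, in these levels was not tested. The split was examined after the values were seen.

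**Figure D5:**
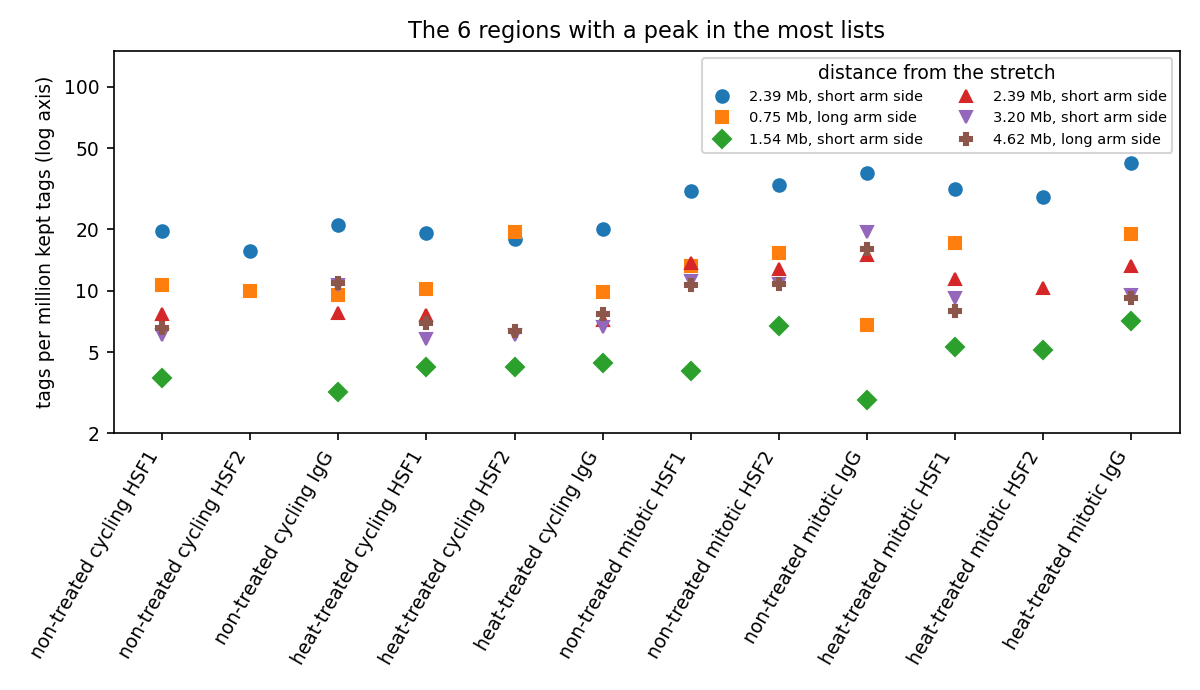
CPM (tags per 1000000 kept tags, vertical log axis) in each of the 12 lists for the 6 regions with a peak in the most lists, labelled by their distance in Mb from the longest peak-free stretch; a missing symbol means no peak in that list. The region found in all lists (blue circles) runs from 15.6 to 21.1 in cycling and from 28.9 to 42.0 in mitotic libraries.

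Some regions far apart held nearly the same number of tags. The regions at 44070219 to 44071341 and 70326901 to 70328084, and one more at 42818546 to 42819705, had overlapping counting intervals in 10 of 10 common lists for each pair, with summed tags of 1065, 1089 and 1073. They differ in width by less than 10%. The region at 44991847 to 44994535 and the one at 67789963 to 67792531, on opposite sides of the long stretch, were alike in 5 of 5 common lists, with 1942 and 1828 tags there. The former had peaks in 8 lists, with 2964 tags, so lists in which the latter had no peak did not enter. Of 34 pairs of similar width that shared at least 5 lists, 12 were alike in every common list. The criteria were set after the values were seen, and whether these regions share sequence was not tested.

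Regions with peaks of both factors in 1 heat-treated cell state and of no IgG list made up 6 of 441 (1.36%, Wilson interval 0.625 to 2.94). The share was 1.88% of 2657 regions on the rest of chromosome 9 and 1.66% of 86567 over all chromosomes, both within that interval. The region at 70950634 to 70951467, at the outer edge of the long-arm side, held 22 tags for HSF1 (1.31 CPM, interval 0.824 to 1.99, fold 5.43) and 28 tags for HSF2 (1.44 CPM, 0.955 to 2.08, fold 5.82) in heat-treated cycling cells. It had no peak in the other 10 lists, and the HSF1 and HSF2 summits lay 6 bp apart. The region at 69168106 to 69168930 held 14 tags for HSF1 (fold 4.27) and 26 tags for HSF2 (fold 8.14) in the same cells, with summits 60 bp apart. Its HSF2 fold was the highest in the window within that list.

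Another 3 of the 6 regions were also found with both factors in heat-treated cycling cells only. The region at 69659661 to 69660343 had 14 tags for HSF1 (fold 4.62) and 15 for HSF2 (fold 3.49), that at 70393820 to 70394519 had 15 and 15 tags (folds of 4.00 and 2.81), and that at 68830197 to 68830985 had 19 and 18 tags (folds of 3.82 and 3.12). All 5 lie on the long-arm side, and none held more than 28 tags in a list. The sixth, at 38621000 to 38621701 on the short-arm side, was found in heat-treated mitotic cells with 9 tags for HSF1 (fold 2.46) and 18 for HSF2 (fold 3.52). Against these small counts, the region found in all lists held 320 tags for HSF1 and 349 for HSF2 in heat-treated cycling cells.

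Where HSF1 and HSF2 peaks overlapped in heat-treated cycling cells, their summits lay a median of 108.5 bp apart in 8 overlaps without an IgG peak and 3 bp apart in 9 overlaps with one. In heat-treated mitotic cells the medians were 112 bp (1 overlap) and 135 bp (17 overlaps). The distances ranged widely in cycling cells, from 6 to 585 bp without an IgG peak and from 0 to 1712 bp with one.

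Peaks of heat-treated HSF lists with no non-treated and no IgG peak formed 56 regions, 50 of them in 1 list and 6 in 2. That is 12.7% of the window regions (9.91 to 16.1), against 14.2% on the rest of chromosome 9 and 13.2% over all chromosomes, both within the interval. Of these 56, the region at 38283872 to 38284581 had 22 tags in heat-treated mitotic HSF2 (fold 4.67), and that at 44494170 to 44494991 had 17 tags in heat-treated cycling HSF1 (fold 4.65). Both lie on the short-arm side and were seen in 1 list each.

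The peaks of highest fold in the other HSF lists were of both kinds. The region at 46385714 to 46386854 had the highest fold of both mitotic lists in which it led, 2.40 in non-treated HSF1 (9 tags) and 7.19 in heat-treated HSF2 (33 tags), and IgG of heat-treated mitotic cells had a fold of 7.78 there. The region at 45731502 to 45732928 had a fold of 5.40 in non-treated mitotic HSF2, 5.80 in heat-treated mitotic HSF2 and 6.88 in heat-treated mitotic IgG. Multiplied by the ratio of kept input to kept antibody tags, these were 14.0, 7.86 and 14.7. Those of the region at 46385714 were 14.9, 9.74 and 16.6, in the order given. The order of the HSF lists thus turned at both regions, and deposited folds are not compared between lists here. The region at 67784977 to 67785956 led in non-treated cycling HSF2 with a fold of 5.77 (25 tags), and heat-treated mitotic IgG had a fold of 8.45 there, the highest in the window within that list. At 44998495 to 44999228 the fold was 4.88 in non-treated mitotic HSF2 and 8.33 in heat-treated mitotic IgG.

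Other leading peaks were found in 1 HSF list. In non-treated cycling HSF1 these were 70407980 to 70408605 (19 tags, fold 3.61) and 68324943 to 68325520 (13 tags, fold 3.49). In non-treated cycling HSF2 it was 70389253 to 70389823 (18 tags, fold 5.43, FDR 16.7%). In mitotic HSF1 they were 46292845 to 46293324 without treatment (8 tags, fold 2.11) and 70346988 to 70347726 with heat (9 tags, fold 2.46), the last of which also had an IgG peak of 14 tags. None of the single-list leaders held more than 19 tags in an HSF list.

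Other chromosomes were set beside chromosome 9 by taking 5 Mb on either side of each chromosome's longest stretch without peaks, which need not be its centromere. By the median peak density over the 12 lists, chromosome 9 ranked 3 of 23 with 6.10 peaks per Mb, behind chromosome 1 (11.3) and chromosome 21 (8.88). Its median ratio to the rest of the chromosome was 2.68, also rank 3, behind chromosomes 10 (3.32) and 1 (3.16). A high density beside the long stretch was therefore not limited to chromosome 9.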

How the data were processed

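Alignment was to hg19 with Bowtie, and MACS called the peaks, per the submitters' processing notes. The headers of 5 cycling lists carry bwa in their alignment names, so the aligner of those lists is unclear. The file headers give the version as MACS 1.4.1, with each list called on 1 antibody library against the input of its cell state. The deposited lists give per peak the tag count, a score (−10 times log10 of the p-value), the fold (ratio over input) and the FDR in percent, all as the authors' caller wrote them. Accession-style chromosome names in 1 list were translated to chromosome numbers.

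Positions are 1-based. From the deposited counts, CPM (counts per 1000000 kept tags, with kept totals per the file headers), densities per Mb, exact Poisson intervals, conditional exact intervals of density ratios and Wilson intervals of shares were computed (scipy 1.17.1, numpy 2.4.6 and pandas 2.3.3 under Python 3.11.15; figures with matplotlib 3.10.9). On 1000 simulated lists the density ratio interval covered the truth in 95.1%. The simulated counts followed the Poisson model that the interval assumes, so this checks the calculation only. It does not cover clustered peaks, such as those of the 1-Mb long-arm segment. Overlaps were checked against bedtools 2.31.1 for 132 pairs of lists, and 0 differed. Where a count is 0, the limit given is 3 counts of the total.

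Regions named are the 6 found in the most lists, the 2 peaks of highest fold in each HSF list, any HSF peak with a fold of at least 10, and up to 5 each of regions with both factors after heat without IgG and of regions found in heat-treated HSF lists only, 23 in all, plus those said to have been chosen after their values were seen. The members and lists were chosen with earlier results of these data known. Genes and sequences at these positions were not used here, because no hg19 genome was at hand. Each group has 1 library, so no condition was tested. Alternatives tried were thresholds on fold and FDR, other length rules, the long arm as comparison and stricter overlap, and 3 others added after seeing the data.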

Additional observations from a re-analysis of the deposited data

Results flagged for a closer look

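The change with heat in the window-to-rest peak density ratio had opposite signs in cycling and mitotic cells for each antibody. On the log2 scale, heat-treated over non-treated, it was -1.05 in cycling and 0.055 in mitotic cells for HSF1. For HSF2 it was -0.0015 and 0.30, and for IgG 1.52 and -1.88. The difference between cell states was not tested, since each group has 1 library. The HSF1 value in mitotic cells and the HSF2 value in cycling cells correspond to ratios of 1.04 and 0.999, so their signs carry no weight. List size moved with the IgG values: the cycling IgG lists held 15758 peaks without treatment and 4377 after heat, and the mitotic ones 2373 and 41184. Its part in these values was not tested.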

How the results depend on the processing

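No paired analysis was possible because each group has 1 library. The whole span, with no stretch left out, counts the long peak-free stretch as window length. Over it, the density ratio reversed to 0.809 in non-treated cycling IgG and 0.918 in heat-treated cycling HSF1. From ratios whose intervals included 1, it also fell below 1 in non-treated and heat-treated mitotic HSF2, to 0.539 and 0.662 with intervals below 1. It moved to 1.90 in non-treated cycling HSF1, to 1.05 in HSF2 of the same cells (within its wide interval), to 1.05 and 2.32 in heat-treated cycling HSF2 and IgG, to 1.17, 0.539 and 1.53 in non-treated mitotic HSF1, HSF2 and IgG, and to 1.22, 0.662 and 0.415 in heat-treated mitotic HSF1, HSF2 and IgG. With a fold of at least 5 it reversed to 0.159 and 0.353 in heat-treated cycling HSF1 and HSF2 and to 2.80 in heat-treated mitotic IgG, and moved to 3.27 in non-treated mitotic HSF2, where 1 window peak remained. In non-treated cycling HSF2 it was then 3.92, within its interval. Against the long arm alone, heat-treated mitotic IgG moved to 0.691. Without the 1-Mb segment of the long arm, a choice made after seeing the data, it moved to 4.95, 23.7 and 4.12 in non-treated mitotic HSF1 and IgG and heat-treated mitotic HSF1. The median tag density ratio of 2.74 became 1.37 over the whole span, 2.33 against the long arm, 3.11 with only the longest stretch left out, 5.08 without the segment and 2.34 without the peak of most tags in each list; the last 3 were added after seeing the data. Medians over lists, with a tolerance of 10%, summarise these values, a choice also made after they were seen, as was a tolerance of 1.5 times for the ratios of single lists. The median share of HSF window peaks with an IgG peak, 33.9%, became 22.9% with summits within 250 bp. The tag density ratio of single lists over the whole span was 3.12, 1.56 and 1.15 for non-treated cycling HSF1, HSF2 and IgG, 1.45, 2.37 and 5.80 after heat, 0.943 (reversed), 1.29 and 5.30 for non-treated mitotic cells, and 0.918 (reversed), 1.19 and 1.04 after heat. Without the segment it moved by over 1.5 times to 14.6, 4.85 and 3.47 in non-treated cycling HSF1, HSF2 and IgG, to 19.5 in heat-treated cycling IgG, to 12.6 and 58.4 in non-treated mitotic HSF1 and IgG and to 10.4 in heat-treated mitotic HSF1. With a fold of at least 5 it reversed to 0.104 and 0.300 in heat-treated cycling HSF1 and HSF2 and moved to 1.5005 in non-treated mitotic HSF2 and 4.57 in heat-treated mitotic IgG. With an FDR of at most 5% it was 6.29 in heat-treated cycling IgG, and without the peak of most tags 2.03 in non-treated cycling HSF2. The median HSF to IgG ratio of the window over the rest, 0.646, was 0.671 without the segment, but the range over lists went from 0.178 to 2.71 to 0.0593 to 4.35. It reversed there in heat-treated mitotic HSF1 (4.35) and moved in non-treated cycling HSF1 (4.22), heat-treated cycling HSF2 (0.272) and non-treated mitotic HSF2 (0.0593). Without the peak of most tags it reversed in non-treated cycling HSF2 (0.928) and heat-treated mitotic HSF2 (0.976), and with a fold of at least 5 in heat-treated mitotic HSF2 (0.513). With an FDR of at most 5% it moved to 5.29 in non-treated cycling HSF1 and to 0.461 and 0.751 in heat-treated cycling HSF1 and HSF2. The causes were not tested. With a fold of at least 5 some lists kept no peak in the window or on the rest, and 6 density ratios, the 3 medians and many ratios of single lists had no value. With an FDR of at most 5%, the non-treated cycling HSF2 ratio and the medians of tag density and of HSF to IgG had none. The smallest lists limit precision most, with 8 window peaks in non-treated cycling HSF2.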
